A study of Mus musculus with 4 samples.

Results

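Integrins are the receptors by which cells hold on to extracellular matrix and to each other, and 10 integrin subunit genes of endothelial cells were followed here in cultured mouse liver sinusoidal endothelial cells (LSECs). They were chosen by symbol from a table of 18373 genes and comprised 6 alpha subunits (Itga1, Itga2, Itga5, Itga6, Itga9 and Itgav) and 4 beta subunits (Itgb1, Itgb3, Itgb4 and Itgb5). All 10 were in the table and passed the filter on low counts. The table held 16 other integrin subunits. RNA-seq was done on primary LSECs taken from the livers of Balb/c mice 8 weeks old and plated on collagen. The cells received a control siRNA (NC, n = 2) or siRNA against the long noncoding RNA Airn (siAirn, n = 2) for 48 h, and the labels describe them as cells at day 3. The NC and siAirn libraries shared strain, plating and time. The labels call the replicates biological but do not say that they came from separate mice, so the p-values measure the spread between these libraries. The treatment is described as 2 separate siRNAs, and which of them each siAirn library received was not settled by the labels.

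An integrin is a pair of one alpha and one beta subunit, and the pair sets the ligand. Itgb1 joins most of the alpha subunits: with Itga1 or Itga2 it binds collagen, with Itga5 fibronectin, with Itga6 laminin, and with Itga9 tenascin-C and other matrix proteins. Itgav joins Itgb1, Itgb3 or Itgb5 into receptors for vitronectin, fibronectin and other proteins with an Arg-Gly-Asp motif, and some Itgav integrins release active transforming growth factor beta from its latent complex. Itga6 with Itgb4 anchors epithelia and some endothelia to laminin. LSECs in the healthy liver have open fenestrae and lie on sparse matrix without an organized basement membrane, and in fibrosis they lose fenestrae while matrix gathers beneath them.

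Library totals lay between 17308382 and 18371959 estimated counts. Airn, the target, had 7 and 3 counts in the NC libraries and 11 and 9 in the siAirn libraries, a ratio of 1.97 with a 95% exact interval of 0.88 to 4.71 that covers counting error only. No reduction of the target was seen in the libraries that carry the siAirn label, so every direction given here is one between libraries as labelled. The labelled cell type was checked with 12 LSEC markers, all of which were detected, with Oit3, Stab1 and Flt4 the most abundant. Their summed level was 4153 and 4168 CPM (counts scaled to library size) in NC and 3010 and 2755 CPM in the libraries labelled siAirn. All 12 were lower there, 9 with an adjusted p under 0.05 in edgeR's quasi-likelihood test, where 8.56% of all genes tested were lower. Alb, a hepatocyte marker, had 685 CPM on average over all libraries, beside 734 CPM for Oit3.

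The promoter windows of the 3 subunits that passed the test below, Itgav, Itga1 and Itga2, are shown because these genes were higher together in the libraries labelled siAirn. Each runs from 250 bases before to 50 bases after a RefSeq start site (GRCm38.p6), and 7 of the 10 subunits had a window in the RefSeq table. Capitals mark matches on either strand to Sp1 (GGGCGG), AP-1 (TGANTCA), Ets (CGGAAG), TEAD (GGAATG), a KLF core (CACCC) or a TATA box (TATAAA), and no match of one motif overlapped another. Itgav lay on the plus strand at chr2:83724147-83724446, Itga1 on the minus strand at chr13:115101915-115102214 and Itga2 on the minus strand at chr13:114932051-114932350.
Itgav: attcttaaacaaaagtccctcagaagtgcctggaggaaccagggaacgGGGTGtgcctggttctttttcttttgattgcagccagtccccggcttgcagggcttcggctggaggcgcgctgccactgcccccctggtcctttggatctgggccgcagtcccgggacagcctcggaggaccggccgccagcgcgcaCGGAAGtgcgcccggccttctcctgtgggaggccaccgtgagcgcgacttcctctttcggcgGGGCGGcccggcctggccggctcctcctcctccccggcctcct
Itga1: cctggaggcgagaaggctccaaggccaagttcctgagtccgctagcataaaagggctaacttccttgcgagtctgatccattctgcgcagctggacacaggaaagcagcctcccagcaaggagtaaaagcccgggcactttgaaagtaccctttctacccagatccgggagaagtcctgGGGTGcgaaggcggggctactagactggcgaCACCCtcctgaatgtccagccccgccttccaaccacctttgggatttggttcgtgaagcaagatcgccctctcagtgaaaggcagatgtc
Itga2: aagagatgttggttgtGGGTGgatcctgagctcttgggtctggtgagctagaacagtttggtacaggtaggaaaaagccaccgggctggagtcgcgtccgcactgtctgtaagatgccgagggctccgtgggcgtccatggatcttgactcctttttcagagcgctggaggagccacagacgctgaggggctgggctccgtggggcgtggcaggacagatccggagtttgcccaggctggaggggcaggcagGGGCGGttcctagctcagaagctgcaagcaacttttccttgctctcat

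With the first transcribed base counted as 0, the Itgav window had a KLF core at -202 to -198, an Ets match at -55 to -50 and an Sp1 match at 7 to 12. The Itga1 window had KLF cores at -71 to -67 and -40 to -36 and no other match. The Itga2 window had a KLF core at -234 to -230 and an Sp1 match at 2 to 7. The KLF core was thus the one motif found in all 3 windows, and it is a common word: 57.5% of the 32851 windows in the table held it, as did those of Itga9, Itgb1 and Itgb5, which did not pass the test. Sp1 was in 35.7% of them and Ets in 16.9%. AP-1, TEAD and TATA matches, in 7.81%, 14.7% and 13.6% of all windows, were in none of the 3. The Itgav window was 67.3% G and C, against 56.7% for Itga1, 59.3% for Itga2 and a median of 52.7% over all windows.

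Levels were compared between genes as FPKM, which is scaled to transcript length. Itgb1, the common partner, was the most abundant subunit in all 4 libraries, at 318 and 297 FPKM in NC and 329 and 332 FPKM in the libraries labelled siAirn. It made up 62.7% of the summed FPKM of the 10 subunits in NC and 63.2% in the libraries labelled siAirn. Itga5, the fibronectin receptor subunit, came next with 91.9 ± 6.51 FPKM (SD, n = 2) in NC and 87.0 ± 2.27 FPKM in siAirn. The gap between Itgb1 and Itga5 was thus 3.34 times in NC and 3.797 times in siAirn.

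Below Itga5 the order of levels differed between the groups. In NC it ran Itga9 (24.9 ± 0.622 FPKM), Itgb3 (18.4 ± 0.721), Itgav (17.7 ± 1.09), Itgb5 (12.6 ± 1.44), Itga1 (9.33 ± 0.650) and Itga6 (7.12 ± 0.785). Itgb3 and Itgav overlapped in NC and were not separated, while all other neighbours in that order were. In the libraries labelled siAirn it ran Itgav (29.5 ± 4.17 FPKM), Itga9 (20.97 ± 1.07), Itgb3 (18.3 ± 1.80), Itgb5 (15.01 ± 2.83), Itga1 (12.4 ± 0.530) and Itga6 (7.58 ± 0.686), and no neighbours overlapped. Itgav thus moved from the fifth place among the 10 subunits to the third. Itga2 and Itgb4 closed both orders. Itga2 had 0.760 and 1.69 FPKM on average in NC and siAirn, and Itgb4 had 0.165 and 0.120 FPKM, the latter from at most 25 counts in a library. In these LSEC libraries the laminin-anchoring subunit Itgb4 was hence close to the detection limit while its partner Itga6 was not.

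**Figure D1:**
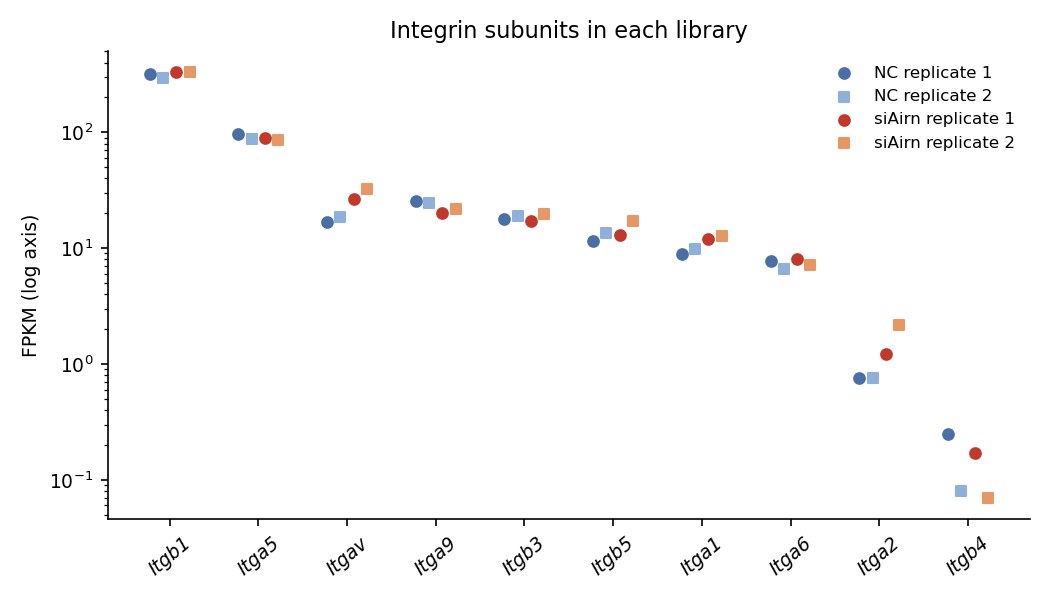
FPKM (log axis) of the 10 integrin subunits in each of the 4 libraries, one point per library, ordered by the mean over libraries. Itgb1 lies between 297 and 332 FPKM in every library, and the siAirn points lie above the NC points for Itgav, Itga1 and Itga2.

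The comparison between siAirn and NC asked which subunits differed when the cells had received siRNA against Airn. Itgav, Itga1 and Itga2 were higher in the libraries labelled siAirn with an adjusted p under 0.05 in edgeR's quasi-likelihood test, and none of the 10 was lower. That is 3 of 10 higher, where 8.27% of the 13628 genes tested were higher by the same rule, and 0 of 10 lower, where 8.56% were lower. By the threshold the study used (fold change over 1.4 and unadjusted p under 0.05), Itgav and Itga2 were higher, 2 of 10 against 5.25% of all genes, and 0 of 10 lower against 4.72%. The libraries of the 2 groups did not overlap in CPM for 6 of the 10 subunits, where 62.7% of all genes tested did not overlap, so separation as such was as frequent in the integrins as among all genes. The median log2 fold change of the 10 was 0.06, and that of all genes tested was 0.0013.

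The counts rest on few libraries. Without either NC library, 0 of the 10 subunits had an adjusted p under 0.05. Those fits called 40 of all genes tested without NC replicate 1 and 0 without NC replicate 2. Without NC replicate 1 the log2 fold change was 0.51 for Itgav, 0.30 for Itga1 and 1.11 for Itga2. Leaving out NC replicate 2 gave 0.68, 0.45 and 1.11 in that order. Without siAirn replicate 2 the count was 1 (Itgav), in a fit that called 10.4% of all genes, and without siAirn replicate 1 it was 4 (with Itgb5), where 17.3% were called.

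**Figure D2:**
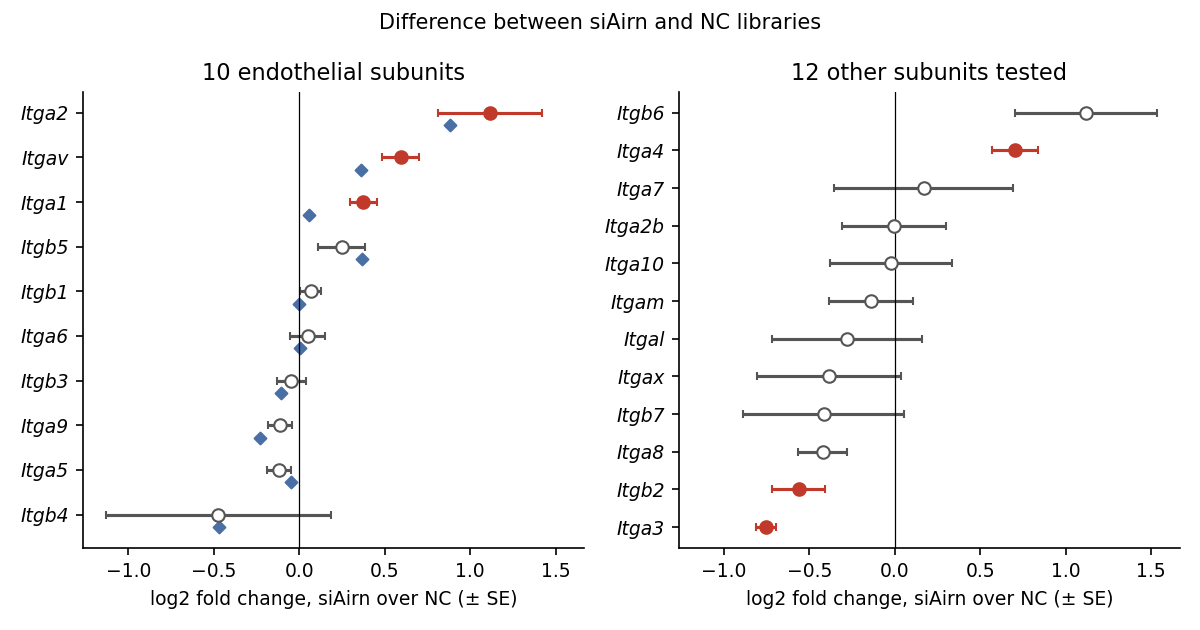
Log2 fold change of siAirn over NC with its standard error for the 10 endothelial subunits (left) and the 12 other subunits tested (right), filled red where the adjusted p was under 0.05. Blue diamonds on the left give the value corrected for GC content and length, which is 0.36 for Itgav, 0.06 for Itga1 and 0.88 for Itga2.

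Among the collagen receptors, Itga1 had 52.6 and 58.3 CPM in NC and 69.4 and 74.5 CPM in the libraries labelled siAirn. Both siAirn values lay above both NC values. The log2 fold change was 0.38 (SE 0.08, adjusted p = 0.0241), a 1.30-fold difference that did not reach the fold of 1.4. It was 0.06 (adjusted p = 0.705) with GC content and length corrected for, and its adjusted p was 0.0647 without siAirn replicate 2. Exons of another gene on the same strand cover 3.68% of the exonic bases of Itga1, and exons on the opposite strand cover 5.90% of those of Itgav. Whether counting used strand is not given in the sources used here, so reads there cannot be assigned with certainty.

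Itga2, the subunit of the collagen receptor known from platelets and epithelia, had 54 and 57 counts in NC and 88 and 156 counts in the libraries labelled siAirn. These are 3.15 and 3.15 CPM against 4.87 and 8.82 CPM, so the groups did not overlap, and the 2 siAirn libraries lay further apart from each other than siAirn replicate 1 lay from NC. The log2 fold change was 1.12 (SE 0.30, adjusted p = 0.0488), the largest of the 10 and the one nearest to the threshold. Its adjusted p passed 0.05 in 5 of the 10 other ways of fitting all 4 libraries, with a range from 0.00398 to 0.119. Without siAirn replicate 2 its log2 fold change was 0.63 (adjusted p = 0.177).

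Since platelets and epithelial cells also carry Itga2, their markers were read beside it. Among all genes tested, 8.27% were higher and 8.56% lower with an adjusted p under 0.05. Of 12 platelet and megakaryocyte markers, 6 were tested, 3 higher and 3 lower with a median log2 fold change of 0.05, and their summed level was 55.3 and 65.9 CPM in NC and 46.2 and 46.5 CPM in the libraries labelled siAirn. Most of this sum was Clec1b, which sinusoidal endothelium also makes and which was the 1 marker called, lower at 26.5 against 42.6 CPM (adjusted p = 0.0121). Pf4, a platelet chemokine, had 13.7 CPM in NC and 14.7 CPM in siAirn on average. Itga2b, the platelet integrin subunit, had 1.94 ± 0.396 CPM in NC and 1.93 ± 0.148 CPM in siAirn. Of 10 cholangiocyte and epithelial markers, 8 were tested and 0 had an adjusted p under 0.05, with summed levels of 28.4 and 24.2 CPM in NC and 32.9 and 28.9 CPM in siAirn.

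Among the receptors for Arg-Gly-Asp proteins, Itgav had 108 and 122 CPM in NC and 156.5 and 191 CPM in the libraries labelled siAirn. Every siAirn value was above every NC value, and siAirn replicate 2 was the highest. The log2 fold change was 0.60 (SE 0.11, adjusted p = 0.0168), or 1.51-fold, the lowest adjusted p of the 10 subunits. It had an adjusted p under 0.05 in 9 of 10 other ways of fitting all 4 libraries, and the log2 fold change lay between 0.36 and 0.73 in them.

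The partners of Itgav did not pass the test. Itgb3 had 102 and 109 CPM in NC and 94.7 and 110 CPM in siAirn, overlapping ranges with a log2 fold change of -0.05 (SE 0.09, adjusted p = 0.745). Itgb5 had 33.1 and 39.0 CPM in NC and 37.5 and 48.2 CPM in siAirn, with a log2 fold change of 0.25 (SE 0.14, adjusted p = 0.251). With a replicate block its adjusted p was 0.0177, in a fit that called 35.5% of all genes. Its groups overlapped because siAirn replicate 1 lay below NC replicate 2. With one library left out its log2 fold change ranged from 0.06 (without siAirn replicate 2) to 0.42 (without siAirn replicate 1). Itga5, whose only partner is Itgb1, had 418 and 380 CPM in NC and 372 and 363 CPM in siAirn. Its groups did not overlap, and the log2 fold change was -0.12 (SE 0.07, adjusted p = 0.274).

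Itgb1 itself had 1308 and 1228 CPM in NC and 1316 and 1340 CPM in the libraries labelled siAirn. With the highest counts of the 10, from 22212 to 23794 in a library, its log2 fold change was 0.07 (SE 0.06, adjusted p = 0.474). The groups did not overlap, with siAirn replicate 1 just above NC replicate 1, but the 2 NC libraries lay further apart than these. Itga6, the laminin receptor subunit, had 44.5 and 38.3 CPM in NC and 45.4 and 40.2 CPM in siAirn, a log2 fold change of 0.05 (SE 0.10, adjusted p = 0.773) with overlapping groups. Itgb4 counts were 25 and 9 in NC against 18 and 7 in siAirn, and with so few its log2 fold change of -0.47 had a standard error of 0.66 (adjusted p = 0.651). Its replicates differed from each other by more than the groups did.

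Itga9, the subunit of the tenascin-C receptor, had 154 and 151 CPM in NC and 134 and 148 CPM in siAirn. Its groups did not overlap in CPM, with siAirn replicate 2 just below NC replicate 2, and the log2 fold change was -0.11 (SE 0.07, adjusted p = 0.305).

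Because integrins act as pairs, subunits were also set against each other within a library as ratios of FPKM. These ratios are given as a description, without a test. An exact permutation test of 2 libraries against 2 cannot give a p below 0.333. For each Itgb1 transcript there were 0.0533 and 0.0622 of Itgav in NC and 0.0805 and 0.0977 in the libraries labelled siAirn. The log2 difference was 0.62, and 0.52 with CPM in place of FPKM. Itga9 to Itgb1 went the other way, from 0.0800 and 0.0826 to 0.0614 and 0.0655 (a log2 difference of -0.36, and of -0.18 with CPM in place of FPKM), and Itga5 to Itgb1 from 0.304 and 0.294 to 0.269 and 0.258. The sum of the 6 alpha subunits to Itgb1 stood at 0.494 ± 0.00345 in NC and 0.482 ± 0.00809 in siAirn. Itga5 made up 60.5% ± 1.83 of the summed alpha FPKM in NC and 54.7% ± 2.63 in siAirn, while Itgav made up 11.7% ± 1.19 and 18.5% ± 2.21. The summed alpha transcripts thus differed little between the groups relative to Itgb1, and the share of Itgav within them was higher in both siAirn libraries than in both NC libraries.

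The beta partners of Itgav showed the reverse side of this. Itgb3 to Itgav was 1.06 and 1.02 in NC and 0.643 and 0.604 in the libraries labelled siAirn, a log2 difference of -0.74 (-0.64 with CPM). Itgb5 to Itgav was 0.683 and 0.736 in NC and 0.490 and 0.525 in siAirn, a log2 difference of -0.48 (-0.35 with CPM). With GC content and length corrected for, the log2 fold changes of Itgb5 and Itgav were 0.37 and 0.36, so their difference was not seen there. That of Itgb3 was -0.11. Itgb3 to Itgb5 was 1.55 and 1.39 in NC and 1.31 and 1.15 in siAirn. In NC there was about one Itgb3 transcript to each Itgav transcript, and in both siAirn libraries there were fewer.

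**Figure D3:**
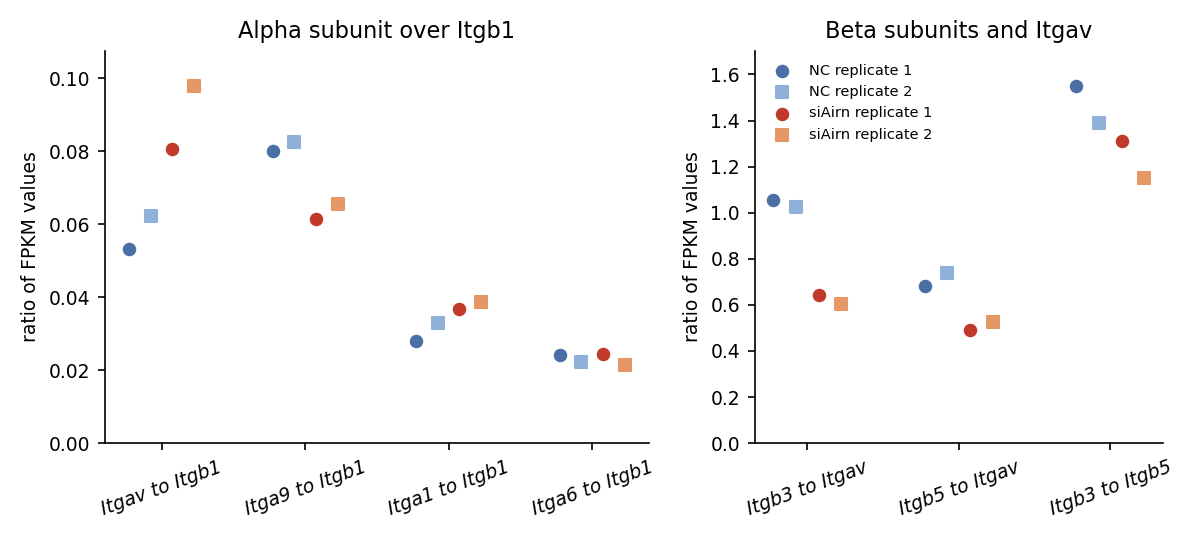
Ratios of FPKM values within each library, one point per library and with both axes starting at 0: alpha subunits over Itgb1 (left) and the beta partners of Itgav (right). Itgav to Itgb1 is 0.0533 and 0.0622 in NC and 0.0805 and 0.0977 in siAirn, and Itgb3 to Itgav is 1.06 and 1.02 in NC against 0.643 and 0.604 in siAirn.

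The 3 subunits that passed the test shared a sequence property that the choice of genes did not use. Their longest transcripts had the lowest GC content of the 10, at 42.8% for Itga1, 43.5% for Itgav and 43.7% for Itga2, where the median of 12905 genes tested was 49.7%. They were also long, with 98.4% of genes shorter than Itga1, 91.1% shorter than Itgav and 91.3% shorter than Itga2. These lengths are of the longest annotated transcripts, at 10967 bases for Itga1, 7108 for Itga2 and 7054 for Itgav. The deposited FPKM values imply 5857 to 5869 bases for Itga1, 4082 to 4105 for Itga2 and 5954 to 6495 for Itgav. For all 3 the correction described next thus used longer lengths than the quantification did. The same held for Itga9 (7020 against 6005 to 6864 bases) and Itgb5 (3282 against 2826 to 2936 bases), and by less for Itga5 and Itgb3. For Itgb1 (3815 against 4067 to 4078 bases) and Itga6 (4310 against 5715 to 5740 bases) the correction used shorter lengths. Across these 12905 genes, which share libraries and are no replicates of each other, the Spearman correlation of the log2 fold change was -0.333 with GC content and 0.364 with length. Itgb1, with a GC content of 44.8%, was the lowest of the other 7 and had a log2 fold change of 0.07, where the genes of like GC content (median 44.8%) had a median of 0.10.

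With GC content and length corrected for, none of the 10 subunits had an adjusted p under 0.05 in edgeR's quasi-likelihood test, and 7.87% of genes were still called. Itgav then had a log2 fold change of 0.36 (SE 0.11, adjusted p = 0.0931), Itga2 0.88 (SE 0.30, adjusted p = 0.119) and Itga1 0.06 (SE 0.09, adjusted p = 0.705). All 3 values were nearer to 0 than without the correction, that of Itga1 by the largest part. The same correction gave -0.23 (SE 0.06, adjusted p = 0.0759) for Itga9 and 0.37 (SE 0.14, adjusted p = 0.152) for Itgb5, both further from 0 than before.

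**Figure D4:**
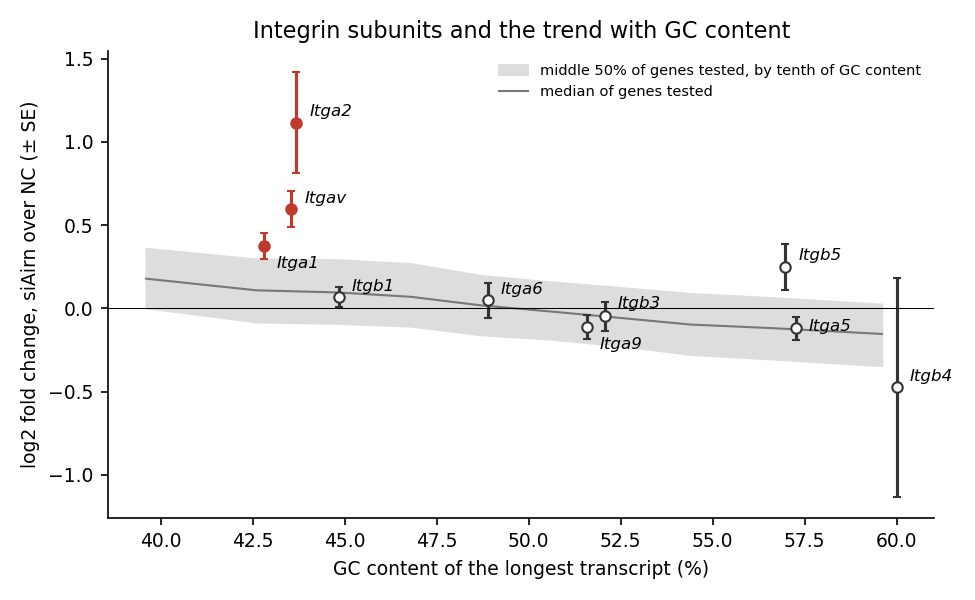
Log2 fold change with its standard error against the GC content of the longest transcript for the 10 integrin subunits, red where the adjusted p was under 0.05, over the median (line) and middle 50% (grey) of the 12905 genes tested, in 10 bins of GC content. Itgav and Itga2 lie above the grey band, and Itga1, at 0.38, lies closer above it. Itgb5, at 0.25, also lies above the band, and Itgb4, at -0.47, lies below it.

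The FPKM values held one more difference. Dividing count by FPKM and library total gives back the length that the authors' quantification used, and for 6 of the subunits the change between the groups lay between -0.21% and 0.04%. For Itga9 it was 6005 and 6067 bases in NC and 6762 and 6864 bases in the libraries labelled siAirn, 12.9% longer. For Itgav it was 6341 and 6495 bases in NC and 6004 and 5954 bases in siAirn, a change of -6.83%. Both subunits were thus apart between the groups in every library and in opposite senses, and Itgb5 followed with 2.37%. Of 10160 genes with at least 100 counts and 1 FPKM in every library, the middle 90% lay between -4.57% and 5.10%, and 187 (1.84%) differed by as much as Itga9. RSEM, which the processing notes name, weights the length of a gene by its estimated mix of transcripts, and values per transcript were not used here. The mean FPKM of Itga9 changed by -16% where the fit on counts gave -7.47%, and that of Itgav by 66.5% where the fit gave 51.1%. The fold of these 2 subunits thus depended on the unit, and the reason for the shift was not tested.

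**Figure D5:**
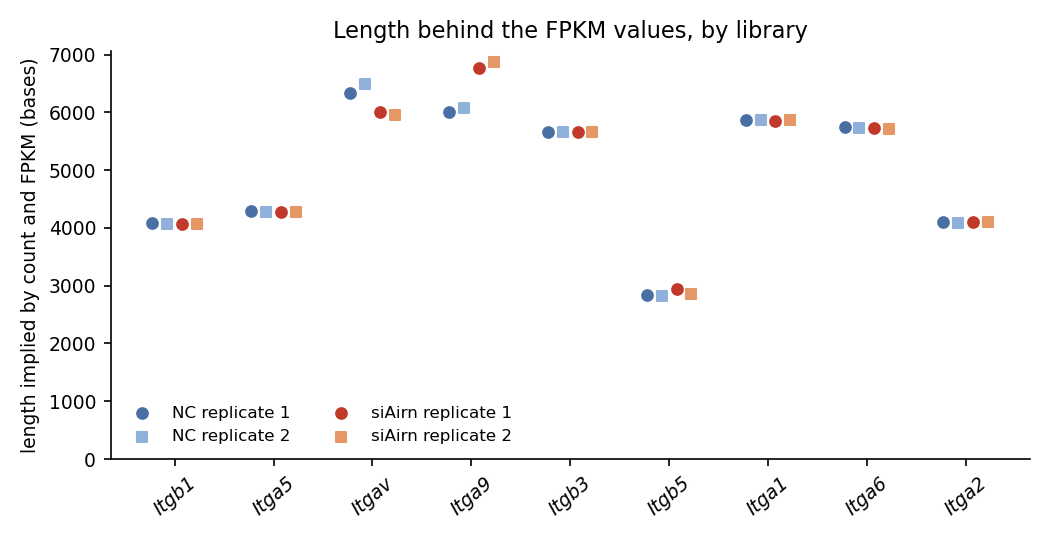
Length in bases implied by the deposited count, FPKM and library total for 9 of the subunits, one point per library (Itgb4 had too few counts). The points of a gene coincide except for Itgav, lower in siAirn, Itga9, higher in siAirn at 6762 and 6864 bases against 6005 and 6067, and slightly Itgb5.

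Of the other integrin subunits, 12 of 16 passed the filter, 1 rose and 2 fell, with a median log2 fold change of -0.21, beside 8.27% higher and 8.56% lower among all genes tested. Itga3, a laminin receptor subunit, fell from 138 and 141 CPM in NC to 83.6 and 81.7 CPM in the libraries labelled siAirn, a log2 fold change of -0.75 (SE 0.06, adjusted p = 0.00496). Replicates lay close together in both groups, and with GC content and length corrected for the value was -0.71 (adjusted p = 0.00695). Leaving out NC replicate 1 gave -0.77 (adjusted p = 0.0502), and leaving out NC replicate 2 gave -0.74 (adjusted p = 0.0741). Itga4, which binds fibronectin and Vcam1, rose from 32.2 and 36.2 CPM to 48.3 and 63.3 CPM, a log2 fold change of 0.70 (adjusted p = 0.0191), and had 0.38 (adjusted p = 0.135) after that correction. Itgb2, the leukocyte beta subunit, fell from 13.01 and 13.7 CPM to 10.2 and 7.86 CPM, a log2 fold change of -0.56 (adjusted p = 0.0490). This call was held in 5 of the 10 other fits of all 4 libraries, where the adjusted p of Itgb2 lay between 0.00811 and 0.1 (0.0989 with GC content and length corrected for), and in 1 of the 4 fits without a library.

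The fall of Itgb2 came with macrophage and Kupffer cell markers, of which 7 of the 11 tested were lower with an adjusted p under 0.05 and 0 higher (8.56% and 8.27% of all genes), at summed levels of 243 and 310 CPM in NC and 186 and 156 CPM in the libraries labelled siAirn. Their part in the result was not tested, and in bulk RNA fewer cells of a type and less RNA per cell cannot be told apart. Among the subunits without an adjusted p under 0.05, Itga8 had a log2 fold change of -0.42 (adjusted p = 0.0884) and Itgb6 1.12 (adjusted p = 0.110, with NC counts of 9 and 15 against 23 and 30). The remaining 7, Itga2b, Itga7, Itga10, Itgal, Itgam, Itgax and Itgb7, had adjusted p-values from 0.559 to 0.995.

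Ligands of these integrins were read from a list of 30, of which 28 were tested. Of these, 8 rose and 4 fell, with a median log2 fold change of 0.26, where 8.27% of all genes rose and 8.56% fell. With GC content and length corrected for, 3 ligands were called higher and 3 lower. That fit called 384 of 12905 genes higher and 632 lower. Fbn1, the microfibril protein fibrillin with an Arg-Gly-Asp site, had 68.0 and 69.5 CPM in NC and 101 and 133 CPM in the libraries labelled siAirn, a log2 fold change of 0.77 (SE 0.12, adjusted p = 0.0125), with 20.1% of its exonic bases under exons of the opposite strand. Thbs1, the matrix protein thrombospondin, had 879 and 961 CPM in NC and 1231 and 1681 CPM in siAirn, a log2 fold change of 0.66 (SE 0.14, adjusted p = 0.0234). In both genes every siAirn library was above every NC library. The groups did not overlap in 23 of the 28 ligands tested and in 62.7% of all genes tested.

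Col3a1, a fibrillar collagen, rose from 81.6 ± 1.73 to 139 ± 12.4 CPM (SD, n = 2; log2 fold change 0.76, adjusted p = 0.00509), and Lamb1, a laminin chain, from 99.6 ± 9.11 to 164 ± 28.4 CPM (0.72, adjusted p = 0.0142). Tnc, the tenascin-C that Itga9 binds, rose from 1930.4 to 2929 CPM on average (log2 fold change 0.60, adjusted p = 0.0238), and Fn1, the fibronectin that Itga5 binds, from 93.5 to 148 CPM (0.66, adjusted p = 0.0450); these 2 were named after their values were seen. Their receptor subunits Itga9 and Itga5 had log2 fold changes of -0.11 and -0.12. The basement membrane collagen Col4a2 fell, with a log2 fold change of -0.32 (adjusted p = 0.0147), and was likewise named after its value was seen. The values given for the named ligands are not corrected for GC content and length.

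Markers of other liver cells and of endothelium were read beside the ligands, Itgav and Itga1, with 8.27% higher and 8.56% lower among all genes tested. Of 12 stellate cell and fibroblast markers 11 were higher in the libraries labelled siAirn, 3 of them with an adjusted p under 0.05, and the median log2 fold change was 0.35. Their summed level was 1044 and 1246 CPM in NC and 1240 and 1627 CPM in siAirn. The most abundant were Dcn (log2 fold change 0.31, adjusted p = 0.374), Acta2 (0.33, adjusted p = 0.0256) and Col1a1 (0.29, adjusted p = 0.134), and none was at 0. Of 12 hepatocyte markers 11 were tested, all 11 were higher and 2 had an adjusted p under 0.05, at summed levels of 683 and 858 CPM in NC and 949 and 1233 CPM in siAirn. Of 12 pan-endothelial markers, 9 were lower with an adjusted p under 0.05 and 0 higher, at summed levels of 12050 and 11410 CPM in NC and 8758 and 7644 CPM in siAirn. By the methods of the study, LSECs were isolated with magnetic beads against CD146. The part of these markers in the integrin values was not tested.

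Inside the cell, integrins are switched on by talins and kindlins and tied to actin by adaptors. Of 27 activators and adaptors tested, 4 rose and 3 fell, with a median log2 fold change of -0.02, beside 8.27% higher and 8.56% lower among all genes tested. Corrected for GC content and length, 2 were called higher and 2 lower, in a fit that called 384 of 12905 genes higher and 632 lower. Vcl, the vinculin that reinforces the link from talin to actin, rose from 286 ± 6.24 to 385 ± 37.9 CPM (log2 fold change 0.43, adjusted p = 0.0177). Lims1, the adaptor PINCH of the complex with integrin-linked kinase, rose from 186 ± 1.64 to 250.3 ± 20.8 CPM (0.43, adjusted p = 0.0143), and Tns3, a tensin, from 413 ± 21.4 to 553 ± 29.8 CPM (0.42, adjusted p = 0.0134). Rasip1, an endothelial effector of Rap1, fell from 406 ± 23.1 to 253 ± 28.1 CPM (log2 fold change -0.68, adjusted p = 0.00805). Exons of other genes overlap those of Rasip1 (20.4% of its exonic bases on the same strand and 22.5% on the opposite one) and Vcl (25.5%, opposite strand), so their counts are less certain.

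Of 20 focal adhesion kinases and signalling genes tested, 4 rose and 1 fell, with a median log2 fold change of 0.03, beside the same 8.27% and 8.56% of all genes. With GC content and length corrected for, 1 was called higher and 1 lower. That fit called 384 of 12905 genes higher and 632 lower. Rock2, a kinase that drives actomyosin contraction, rose from 194 ± 3.33 to 276 ± 9.90 CPM (log2 fold change 0.51, adjusted p = 0.00687). The adaptors Crk, Crkl and Nedd9 rose by less, with log2 fold changes of 0.26, 0.29 and 0.30. Of 12 lateral partners tested, membrane proteins that sit beside integrins, 0 rose and 3 fell, again beside 8.27% and 8.56%. Corrected for GC content and length, 0 were called higher and 1 lower. The tetraspanins Cd82 and Cd151 fell with log2 fold changes of -0.33 (adjusted p = 0.0194) and -0.22 (adjusted p = 0.0462), and Cd47, a partner of Itgav with Itgb3, with -0.25 (adjusted p = 0.0309). In FPKM the groups of Cd47 overlapped, with 85.9 and 94.6 in NC and 84.0 and 89.6 in siAirn, so its fall depended on the unit.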

How the data were processed

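RNA from 4 libraries of LSECs was sequenced by the authors as single-end reads of 50 bases on a BGISEQ-500. The submitters' processing notes name BWA, Bowtie2 and RSEM, and the build hg19, which is a human build. The mouse reference and whether counting used strand are not given in the sources used here. The authors deposited estimated counts per gene, and a second value that was read as FPKM because it scales with count, length and library total. The authors' means and comparison columns (fold changes and p-values) were not used.

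Estimated counts were rounded. edgeR 4.0.16 (R 4.3.3) was run with its default filter, TMM scaling (factors from 0.985 to 1.02) and the quasi-likelihood test on siAirn against NC, with Benjamini-Hochberg adjustment over 13628 genes. SE is the log2 fold change divided by the square root of the F statistic, and CPM is TMM-scaled. Calls used an adjusted p under 0.05, or the study's fold change over 1.4 with an unadjusted p under 0.05. All tests were two-sided.

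Alternatives were DESeq2 1.42.0, upper-quartile scaling, a looser filter (1 count in any library) and a stricter one (10 counts in all), the likelihood-ratio test of edgeR, limma 3.58.1 on log2(FPKM + 1) and log2(FPKM + 0.1), a replicate block, natural splines on GC content and length (5 degrees of freedom each, from GENCODE M21, for 94.7% of genes tested), and leaving out each library. The fits were tested on simulated data. Named were all 10 subunits, the other subunits tested, and of each further list at most the 4 genes of largest change with an adjusted p under 0.05 and at least 5 CPM. The subunits, the lists and the correction for GC content were chosen with earlier results of these data known. Promoters were taken from RefSeq, and no protein sequence was used here.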

Additional observations from a re-analysis of the deposited data

How the results depend on the processing

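Across 10 alternatives fitted on all 4 libraries, Itgav had an adjusted p under 0.05 in 9, Itga1 in 8 and Itga2 in 5. Correcting for GC content and length, the number of the 10 subunits called was 0, and at an adjusted p under 0.01 it was 0. With one library left out it ranged from 0 to 4. By the fold and p threshold of the study the number was 1 when corrected for GC content and length, with or without the replicate block, and 1 with a fold change over 2, and from 1 to 2 with one library left out. The median log2 fold change of the 10 was 0.11 with limma at either pseudocount (9 subunits, since Itgb4 was under 1 FPKM), 0.0017 when corrected for GC content and length with or without the replicate block, and from 0.0087 to 0.15 with one library left out.

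Genes called went from 7 to 4 (activators and adaptors), 5 to 2 (kinases), 12 to 6 (ligands), 3 to 1 (lateral partners) and 3 to 1 (other subunits) when corrected for GC content and length. The share of all genes called went from 16.8% to 7.87% under the same correction. With limma, 3 kinases and 1 lateral partner were called at either pseudocount, in fits that called 14.9% and 15% of all genes. With one library left out the ranges were 0 to 11, 0 to 4, 0 to 17, 0 to 2 and 0 to 3 in that order. The lowest values came without an NC library, in fits that called at most 40 genes in all. Causes were not tested.

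Same-numbered libraries deviated together (correlation 0.27), but the labels do not pair them and there are 2 pairs, so the numbers were not used as pairs. With a replicate block, 4 of the 10 subunits were called (Itgb5 added), and 15 activators and adaptors, 14 kinases, 19 ligands (15 higher, 4 lower), 6 lateral partners and 4 other subunits (Itga8 added, adjusted p = 0.0232), in a fit that called 35.5% of all genes against 16.8% without it. With the block and that correction together, these were 13 (8 higher, 5 lower), 13 (6 higher, 7 lower), 18 (12 higher, 6 lower), 5 and 4 (31.1% of all genes), and of the 10 subunits Itga2, Itgav and Itgb5 were called higher and Itga9 lower (-0.2275, adjusted p = 0.00128), while Itga1 was not called (adjusted p = 0.488).

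Values that changed sign had adjusted p-values from 0.729 to 0.981. With one library left out the log2 fold change ranged from -0.0587 to 0.1595 for Itga6, from -0.1579 to 0.0569 for Itgb3 and from -1.2819 to 0.4787 for Itgb4. Itga6 was below 0 without NC replicate 2 (-0.0587) or siAirn replicate 1 (-0.0424), Itgb3 above 0 without siAirn replicate 1, and Itgb4 above 0 without NC replicate 1 or siAirn replicate 2 (0.0347). Itgb1 had -0.0027 corrected for GC content and length and -0.0023 with the block added. The sum of the 6 alpha subunits to Itgb1 differed by 0.0012 on the log2 scale with CPM in place of FPKM. The counts are lowest for Itgb4 and Itga2, with at most 25 and 156 in a library.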
